A study of Homo sapiens with 35 samples.

Results

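The mitochondrial chaperones HSPD1, HSPE1, HSPA9, TRAP1 and DNAJA3 and the mitochondrial proteases LONP1, CLPP, CLPX, YME1L1 and AFG3L2 were followed in RPMI-8226 cells over 10 days after a carfilzomib pulse. These 10 genes were chosen by symbol, each through its protein-coding entry in the count table, and all 10 were among the 17999 protein-coding entries that had a count and were tested, of 19665 listed. RPMI-8226 is an established multiple myeloma line, and carfilzomib is an irreversible proteasome inhibitor. In the treated groups, cells were exposed to 750 nM carfilzomib for 1 h, washed, kept in drug-free medium, and collected on day 1, 2, 4, 6, 8 or 10. The day 0 group carries the carfilzomib label too, whereas the methods place its collection before the drug, and it was used here as the untreated baseline. Every group holds libraries from 5 subcultures of the same line, which gives 35 libraries over 7 days. The methods name fewer subcultures than that, so some were sampled on several days. The subcultures were split from 1 expanded culture, and p-values therefore refer only to variation that arose in culture, in the libraries and in sequencing. No culture without the pulse was analysed here at the later days, so time in culture and the pulse cannot be told apart. The samples are bulk RNA of the cells present on each day, in which a change in RNA per cell and a change in which cells were present cannot be told apart.

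Proteins made in the cytosol enter the mitochondrial matrix unfolded. The matrix Hsp70, encoded by HSPA9, pulls them in and hands many of them to a closed folding chamber that is built by the chaperonin Hsp60 (HSPD1) and its lid Hsp10 (HSPE1). Proteins that fail to fold are degraded by the matrix proteases LONP1 and ClpXP and by membrane-bound AAA proteases. Genes of this system are known as targets of stress pathways that respond to misfolded protein in mitochondria, and myeloma cells, which secrete large amounts of antibody chains, are known for a high load of protein folding.

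The libraries held 6519392 to 10962890 estimated counts each, of which 5373835 to 9307889 were protein coding. The members took 0.255% to 0.341% of protein-coding counts, and HSPD1 reached 11487 counts in a single library, where CLPP had as few as 251. Levels are given in CPM, that is, relative to the protein-coding total of the library after TMM normalization. All 8 plasma cell markers examined were present, and their summed level was 6345 to 7259 CPM on day 0, 2567 to 2923 CPM on day 1 and 4506 to 5339 CPM on day 2, with no overlap between these days. From day 4 to day 10 this sum lay between 6078 and 8503 CPM. JCHAIN was the largest part of the sum, with a mean of 4757 CPM on day 0 and 2891 CPM on day 2. On day 1, 0 of the 8 were called higher and 6 lower at an adjusted p of at most 0.05 (edgeR). Of all entries, 25.4% and 27.3% were. On day 2, 4 were called higher and 2 lower (23.2% and 24.4% of all entries), with a median log2 fold change of 0.12. Of 8 markers of other cell types, EPCAM reached 95.7 CPM, the other 7 did not exceed 7.94 CPM in any library, and LYZ, HBB and ALB had 9, 5 and 4 counts in all 35 libraries. The summed level of these 8 was 49.9 to 77.1 CPM on day 0 and 77.9 to 104.7 CPM on later days. The part of these marker shifts in the results below was not tested.

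The members did not move as a block. On day 1, 7 of 10 were higher than on day 0 and 2 were lower (adjusted p at most 0.05, edgeR's quasi-likelihood test), where 25.4% of all entries tested were higher and 27.3% lower. On day 2, 7 members were higher and 3 lower, against 23.2% and 24.4% of all entries. The members had a median log2 fold change of 0.26 and 0.28 on the 2 days, whereas all entries had one of -0.061 and -0.039. Over the 12340 entries that passed a filter on low counts, the median was 0.0067 and 0.0025. The shares of all entries given here and below include entries with few counts, and entries were not matched to the members for level.

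Fewer members differed from baseline later on. On day 4, 4 members were higher and 3 lower (19.0% and 20.1% of all entries), and with library sizes in place of TMM factors this split was 6 to 2. On day 6, 3 were higher and 3 lower (17.5% and 17.0%), on day 8 4 were higher and 3 lower (18.2% and 18.6%), and on day 10 again 4 and 3 (16.1% and 15.8%), the last of which became 5 to 2 without TMM factors. From day 4 to day 10 the members' median log2 fold change lay between -0.015 and 0.060. All 10 members varied over the 7 days at an adjusted p of at most 0.05, as did 64.7% of all entries. All 6 comparisons share the day 0 libraries.

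At the median, the members' day means spanned less than those of the transcriptome. The entries were not matched to the members for level, and counting noise widens such a range. The range of the 7 day means had a median of 0.55 on the log2 scale over the 10 members and of 0.87 over the 12340 entries that passed a filter on low counts. The highest day mean exceeded the lowest by 1.23-fold for YME1L1 and by 2.16-fold for HSPA9, the ends of the members' range. A single member, HSPE1 on day 1, passed a 2-fold change against day 0. Of all 17999 entries tested, 1308 were called higher and 2371 lower by more than 2-fold on that day.

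**Figure D1:**
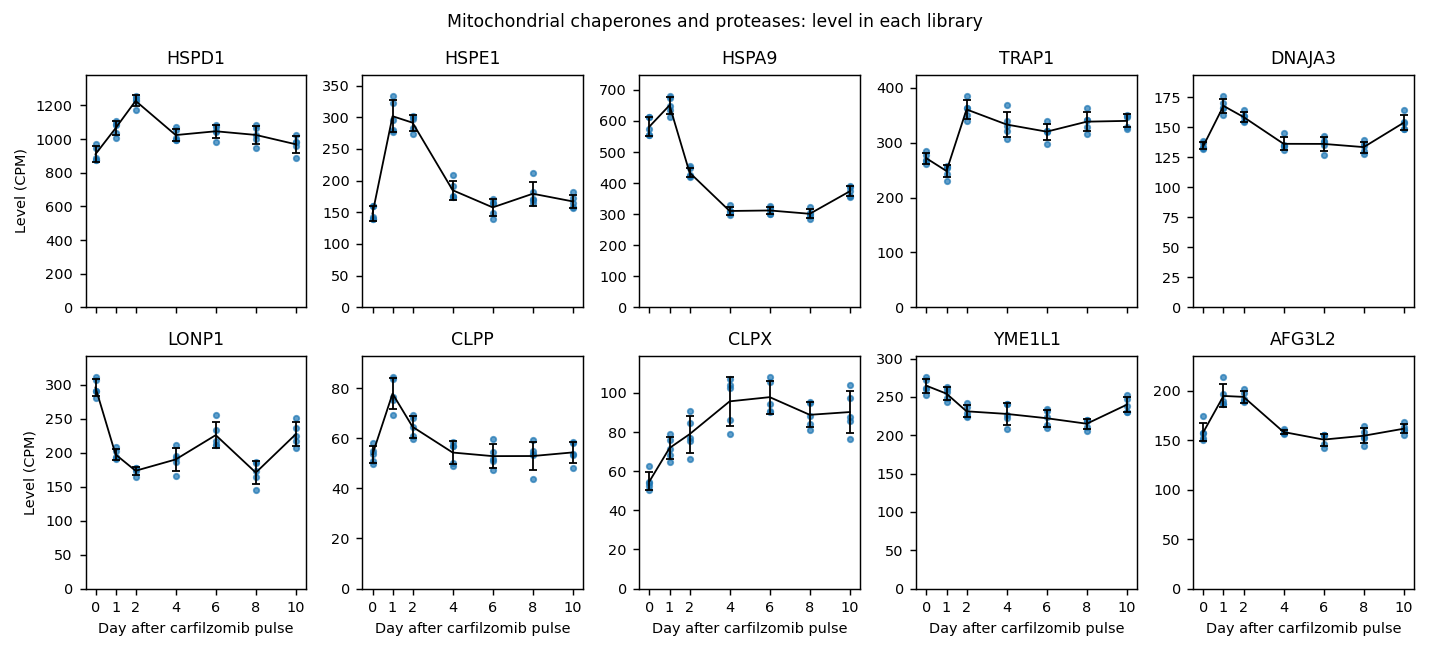
Level of each member in CPM (vertical axes, starting at 0) by day (horizontal axis, day 0 collected before the pulse). Each dot is 1 of 5 libraries, and lines and bars give the mean ± SD. HSPE1 and CLPP peaked on day 1, HSPD1 and TRAP1 on day 2, HSPA9 and LONP1 were below day 0 from day 2 on, and CLPX stayed above it.

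HSPE1, the lid of the folding chamber, rose the most of the members on day 1 and overlapped its day 0 range again on day 6. Its level in the 5 day 0 libraries was 139, 142, 139, 160.3 and 160.2 CPM. On day 1 it was 277, 295, 279.7, 322 and 334 CPM, and on day 2 301, 297, 274, 283 and 302 CPM. Every library of days 1 and 2 was above every day 0 library by a wide margin. Against day 0 the log2 fold change was 1.03 ± 0.068 (SE) and 0.98 ± 0.068, respectively (adjusted p = 7.79e-17 and 4.47e-16, edgeR's quasi-likelihood test, n = 5 per day). The level then fell from day 2 to day 4 by 0.66 on the log2 scale and from day 4 to day 6 by 0.23 (adjusted p = 1.5e-10 and 0.0189, edgeR). The second of these calls was lost when replicate 3 of day 6 was left out (-0.19). On day 6 the libraries spanned 139.6 to 171 CPM, which overlaps day 0, and the change against day 0 was 0.093 ± 0.069. On day 8 all 5 libraries were again above all of day 0, at 164 to 211 CPM (0.28 ± 0.068, adjusted p = 0.00115, edgeR). Day 10 was called higher at 0.18 ± 0.069, but its adjusted p of 0.0442 (edgeR) lay near the threshold, and the call was lost without any 1 of 6 libraries (replicates 1, 2 and 3 of day 0 and 2, 4 and 5 of day 10, 0.16 to 0.18) and when all biotypes were summed (0.14).

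HSPD1, the barrel of the chamber, rose less and later. It stood at 874, 887, 874, 971 and 948 CPM on day 0, at 1005, 1038, 1107, 1090.5 and 1084 CPM on day 1 and at 1258, 1232, 1228, 1174 and 1245 CPM on day 2. All libraries of days 1 and 2 were above all of day 0, with log2 fold changes of 0.23 ± 0.045 and 0.43 ± 0.045 (adjusted p = 4.01e-05 and 7.54e-11, edgeR). From day 4 to day 8 it kept between 0.17 and 0.20 above day 0 on the log2 scale, with day means of 1024 to 1047 CPM against 911 CPM. On day 10 the libraries overlapped those of day 0 (890.3 to 1026 against 874 to 971 CPM), and the change was 0.09 ± 0.045 (adjusted p = 0.133, edgeR, 95% interval -0.0012 to 0.18). Without replicate 4 of day 0 or replicate 1 of day 10 it passed (0.13 in each case), as it did without TMM factors (0.16).

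The proportion of HSPE1 RNA to HSPD1 RNA therefore changed. Protein was not examined here. Within each library, HSPD1 had 6.29, 6.24, 6.30, 6.06 and 5.92 counts for each HSPE1 count on day 0, 3.62, 3.52, 3.96, 3.39 and 3.24 on day 1 and 4.18, 4.15, 4.48, 4.14 and 4.12 on day 2. The ratio fell in all 5 libraries of both days, by 0.80 and 0.55 on the log2 scale (exact two-sided permutation test, p = 0.00794, the smallest that 5 against 5 libraries allow, adjusted p = 0.0116 over the 60 ratio tests of 10 gene pairs on 6 days). On day 4 the difference was -0.15 ± 0.063 and on day 6 it had the opposite sign, 0.11 ± 0.05 (exact permutation test, adjusted p = 0.0325 and 0.0414). Both calls were lost in 4 of the 5 runs that left out 1 replicate number (-0.11 to -0.17 on day 4 and 0.077 to 0.12 on day 6), in which the exact test of 4 against 4 libraries cannot go below p = 0.0286 before adjustment. On days 8 and 10 it was -0.10 and -0.086 and missed the threshold (exact permutation test, adjusted p = 0.117 and 0.152). A readthrough entry, HSPE1-MOB4, had 1440 counts over all libraries, or 41.1 per library, where HSPE1 had 1342. The deposited pseudogene entries HSPD1P14, HSPD1P2, HSPD1P3 and HSPD1P5 had 0 counts. Whether the counting used strand is not given in the sources used here, so reads where transcripts of HSPD1 and HSPE1 overlap cannot be assigned with certainty.

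HSPD1 and HSPE1 lie head to head on chromosome 2 (GRCh38, chr2:197486584-197516737 on the minus strand and chr2:197500140-197503449 on the plus strand, from 24 and 7 annotated transcripts). The HSPE1 start site used here lies 105 and 539 bases from the 2 HSPD1 start sites. The window searched for HSPE1 shares sequence with that of the nearer HSPD1 start site and does not overlap that of the farther one. RefSeq windows from 250 bases before to 50 bases after a start site (GRCh38.p14) were matched for 8 members, in 10 windows, and CLPP and YME1L1 had none. The windows were searched on both strands for the heat shock element cores GAANNTTC and TTCNNGAA, which overlap where units repeat, the E-box CACGTG, the ATF4 and C/EBP composite TGATGNAA and the antioxidant response element core TGACNNNGC. Of all 35116 windows of this length, 6.77%, 7.74%, 7.26%, 3.62% and 13.3% held each of them. The stretches below are shown for the chaperonin pair and for HSPA9 and LONP1, the members with the deepest falls, and hold their E-boxes and runs of heat shock element units. Capitals mark the match.
HSPD1, 4 heat shock element units, chr2:197500061-197500090, minus strand: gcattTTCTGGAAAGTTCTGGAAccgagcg
HSPD1, E-box, chr2:197500345-197500374, minus strand: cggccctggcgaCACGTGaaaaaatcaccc
HSPE1, the same E-box on the other strand, chr2:197500345-197500374, plus strand: gggtgattttttCACGTGtcgccagggccg
HSPA9, E-box, chr5:138575403-138575432, minus strand: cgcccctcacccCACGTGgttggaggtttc
LONP1, E-box, chr19:5720341-5720370, minus strand: ctcacagccttcCACGTGaccggaaaaggc
LONP1, second E-box, chr19:5720178-5720207, minus strand: cgcgccgggcgtCACGTGcgtttcgcggcg

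The run of 4 alternating units in the HSPD1 window begins 245 bases before the HSPD1 start site that lies 539 bases from that of HSPE1, and 12 of the 35116 windows (0.0342%) hold 4 units in a row, while 172 (0.490%) hold at least 3. HSPE1 and HSPD1 share 1 E-box, whose first base lies 22 bases before the HSPE1 start site. In HSPA9 it lies 19 bases before the start site, and in LONP1 the matches begin 212 and 49 bases before it. The composite was in none of the members' windows, the antioxidant response element core was in that of TRAP1, and HSPA9 held TTCNNGAA across its start site. The 250 bases before the start site lie wholly in annotated exons for HSPE1, HSPA9 and the HSPD1 window with the E-box. In that HSPD1 window the exons are those of HSPE1 and HSPE1-MOB4. CLPX and AFG3L2 have 0 such bases in exons of the members, and the other windows overlap them in part. A match is a description of the letters, with no measurement of binding in these data.

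HSPA9, the matrix Hsp70 that drives import and early folding, had the widest swing of all members. On day 0 it stood at 555, 574, 556, 613 and 613 CPM and on day 1 at 613, 635, 674, 681 and 649.6 CPM, so that both days overlapped. On day 4 the libraries were at 309, 298, 329, 309.7 and 304 CPM, and on day 10 at 375, 391, 389, 355 and 358 CPM. Each library from day 2 to day 10 was below each library of day 0. HSPA9 was called higher on day 1 (0.16 ± 0.044 on the log2 scale) and lower on day 2 (-0.42 ± 0.044, adjusted p = 0.00189 and 5.77e-11, edgeR). It lay between -0.90 and -0.95 on days 4, 6 and 8 and was -0.64 ± 0.044 on day 10 (adjusted p = 3e-15, edgeR). The level fell from day 1 to day 2 by 0.58 and from day 2 to day 4 by 0.48 on the log2 scale, did not pass the test in the steps from day 4 to 6 and from day 6 to 8, and rose by 0.31 from day 8 to day 10 (adjusted p = 2.28e-06, edgeR).

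DNAJA3, a J-domain cochaperone that stimulates the matrix Hsp70, took another course. It rose from 132 to 138 CPM on day 0 to 160.2 to 176 CPM on day 1 and 154 to 165 CPM on day 2, with no overlap. These rises came to 0.32 ± 0.043 and 0.24 ± 0.042 on the log2 scale (adjusted p = 2.39e-08 and 8.83e-06, edgeR). On days 4, 6 and 8 it was 0.017, 0.015 and -0.013, with libraries overlapping day 0 on each day, and on day 10 it was called higher again at 0.19 ± 0.043 (adjusted p = 0.000376, edgeR). With no TMM factors, day 4 was also called higher (0.13).

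The number of HSPA9 counts per DNAJA3 count thus dropped from 4.19, 4.15, 4.07, 4.59 and 4.65 in the day 0 libraries to 2.13, 2.22, 2.44, 2.36 and 2.26 on day 4. The difference was -0.16 on the log2 scale on day 1 and between -0.66 and -0.94 from day 2 to day 10, with all 5 libraries below day 0 on each of the latter days (exact permutation test, p = 0.00794, adjusted p = 0.0116). The day 1 difference (adjusted p = 0.0414, exact permutation test) no longer passed when all biotypes of the symbols were summed (-0.093), or without replicate 1, 2, 3 or 5 of both days (-0.13 to -0.19).

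TRAP1, the mitochondrial Hsp90, was low on day 1 and high from day 2 on. On day 0 it was at 278, 266, 261, 285 and 269 CPM, on day 1 at 243, 256, 230.5, 258 and 254 CPM and on day 2 at 364, 386, 363, 339.8 and 351 CPM. All day 1 libraries lay below the lowest of day 0, and all day 2 libraries above the highest. Its log2 fold change on day 1 was -0.13 ± 0.049 (adjusted p = 0.0252, edgeR), a call that was lost without replicate 3 of day 1 (-0.10), in a fit of the 2 days alone (-0.11), with all biotypes summed (-0.094) and without TMM factors (-0.014). On day 2 it was 0.41 ± 0.048 and from day 4 to day 10 between 0.24 and 0.32, each called (edgeR). The rise from day 1 to day 2 was 0.54 ± 0.048 (adjusted p = 1.89e-12, edgeR), and none of the later steps passed.

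LONP1, the matrix protease that degrades oxidized and unassembled proteins, was lower on every day after the pulse. It was at 312, 307, 281, 291 and 291 CPM on day 0, 194, 208, 191, 203 and 192 CPM on day 1 and 173, 177, 164, 177 and 176 CPM on day 2. On days 6, 8 and 10 it was at 212, 234, 218, 211 and 256 CPM, 173, 185, 164, 145 and 186 CPM and 237, 251.8, 206, 224 and 218 CPM. Each library after the pulse was below each of day 0, and day 8 lay below both neighbouring days without overlap. LONP1 had a log2 fold change against day 0 of -0.59 ± 0.062 on day 1 and -0.77 ± 0.062 on day 2 (adjusted p = 8.39e-11 and 4.64e-14, edgeR). On days 4, 6, 8 and 10 it came to -0.64, -0.39, -0.80 and -0.38 (all called, edgeR).

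Its level moved by 0.25 ± 0.062 from day 4 to day 6, by -0.41 from day 6 to day 8 and by 0.41 ± 0.063 from day 8 to day 10 on the log2 scale (adjusted p = 0.00472, 3.06e-05 and 5.39e-06, edgeR). LONP1 was the single member called between days 6 and 8, a step in which 2.56% of all entries were called in either direction. From day 4 to day 6, 2 members were called, LONP1 and HSPE1 (12.1% of all entries), and without TMM factors AFG3L2 was added (-0.13). From day 8 to day 10, HSPA9, DNAJA3, LONP1 and YME1L1 were called, all higher (10.1%). Without replicate 5 of day 8 or replicate 3 or 5 of day 10 the YME1L1 call of this step was lost (0.13 to 0.14), as in a fit of the 2 days alone (0.16).

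Between days 1 and 2, HSPD1 and TRAP1 rose and HSPA9, LONP1, CLPP and YME1L1 fell (39.6% of all entries called in either direction). Between days 2 and 4, CLPX rose and HSPD1, HSPE1, HSPA9, DNAJA3, CLPP and AFG3L2 fell (30.6%). The fall of CLPP was -0.25 ± 0.073 on the log2 scale and was not called without replicate 2 of day 2 or replicate 5 of day 4 (-0.19 and -0.18). For LONP1 this step was 0.13 ± 0.063 and not called, but passed without replicate 2 of either day (0.17 and 0.21), with filterByExpr (0.17) and with DESeq2 (0.16). TRAP1, at -0.11 ± 0.048, passed without replicate 4 of day 2 (-0.14) or replicate 1 of day 4 (-0.15), with summed biotypes (-0.14) and without TMM factors (-0.13).

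The RNA levels of the proteolytic and unfolding subunits of the ClpXP protease parted after day 2. CLPP, the proteolytic chamber, rose from 49.9 to 58.1 CPM on day 0 to 69.4, 83.7, 76.5, 84.6 and 75.2 CPM on day 1 and was at 59.8 to 69.5 CPM on day 2, with no overlap with day 0 on either day. CLPP had log2 fold changes of 0.54 ± 0.074 and 0.27 ± 0.074 on these days (adjusted p = 4e-08 and 0.00215, edgeR). From day 4 on it lay between -0.017 and 0.023 with overlapping libraries, and the 95% interval on day 10 was -0.13 to 0.18.

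CLPX, the ATPase that unfolds substrates for CLPP, rose and stayed up. Its libraries were at 52.5, 54.0, 62.7, 54.7 and 50.4 CPM on day 0 and at 64.7, 75.7, 78.9, 68.4 and 71.5 CPM a day after the pulse. On day 4 they stood at 102, 86.2, 104, 78.9 and 107 CPM, and at the end, on day 10, at 85.8, 87.6, 104, 97.2 and 76.4 CPM. All libraries after the pulse were above all of day 0, and the spread between libraries was wider on day 4 than on day 0. On days 1, 4, 6 and 10 the log2 fold change reached 0.39 ± 0.09, 0.80 ± 0.089, 0.83 ± 0.088 and 0.72 ± 0.089 (adjusted p = 0.000304, 5.28e-10, 2.75e-10 and 1.38e-08, edgeR). The step from day 2 to day 4 (0.28, adjusted p = 0.0087, edgeR) did not pass when all biotypes were summed (0.12).

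There were 0.974, 1.06, 1.26, 0.993 and 0.868 CLPX counts for each CLPP count in the day 0 libraries and 1.75, 1.93, 2.13, 1.99 and 1.51 in those of day 6. On days 1 and 2 the ratio overlapped that of day 0 (-0.15 and 0.25 on the log2 scale, exact permutation test, adjusted p = 0.229 and 0.0694). The day 2 difference passed with all biotypes summed (0.35) and without replicate 3 (0.31). From day 4 to day 10 all 5 libraries were above all of day 0, by 0.69 to 0.86 (exact permutation test, p = 0.00794, adjusted p = 0.0116).

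YME1L1 and AFG3L2, the membrane proteases, had day means that spanned 0.30 and 0.37 on the log2 scale, with DNAJA3 between them at 0.33, and the other 7 members spanned more. YME1L1, the AAA protease that faces the intermembrane space, was at 253.0 to 276 CPM on day 0, 223 to 242 CPM on day 2 and 206 to 220.4 CPM on day 8, its lowest day. Day 1 overlapped day 0, and days 2 to 10 did not, with the highest day 10 library just under the lowest of day 0 (252.8 against 253.0 CPM). The log2 fold change was -0.057 ± 0.045 on day 1 (not called, 95% interval -0.15 to 0.034), -0.19, -0.21, -0.25 and -0.30 on days 2 to 8 and -0.14 ± 0.045 on day 10 (adjusted p = 0.0131, edgeR). Without TMM factors the calls of days 2, 4 and 10 were lost (-0.065, -0.10 and -0.074), and that of day 10 also without replicate 4 or 5 of day 0 or replicate 1 of day 10 (-0.11 to -0.12) and in a fit of the 2 days alone (-0.12).

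AFG3L2, a subunit of the AAA protease that faces the matrix, rose from 151 to 174 CPM on day 0 to 186 to 214 CPM on day 1 and 189 to 202 CPM on day 2, without overlap. AFG3L2 changed by 0.30 ± 0.046 and 0.29 ± 0.046 on the log2 scale (adjusted p = 4.41e-07 and 7.18e-07, edgeR). From day 4 on it lay between -0.072 and 0.031 with overlapping libraries and was not called, except on day 4 without TMM factors (0.11). The ratio of YME1L1 to AFG3L2 counts was below that of day 0 on every later day, by 0.17 to 0.49 on the log2 scale (exact permutation test, adjusted p = 0.0116 on 5 days and 0.0221 on day 6). The day 6 call was lost without replicate 2, 3 or 4 of both days (-0.13 to -0.18).

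**Figure D2:**
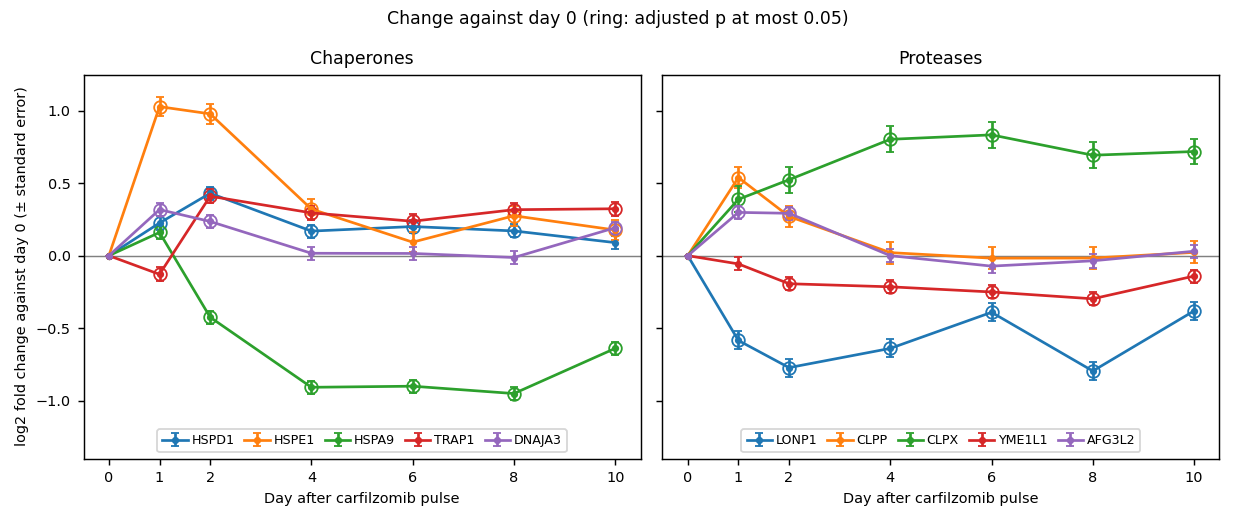
Log2 fold change of each member against day 0 (vertical axis) by day (horizontal axis), with bars for the standard error and rings for an adjusted p of at most 0.05 (edgeR). HSPE1 reached 1.03 on day 1, HSPA9 fell to -0.95 on day 8, LONP1 stayed between -0.38 and -0.80, and CLPX stayed between 0.39 and 0.83.

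The order of levels per length of the canonical transcript changed within the set. In CPM per kilobase on day 0, HSPD1 was highest at 406 ± 20.3, followed by HSPE1 at 266 ± 20.1, HSPA9 at 132 ± 6.61 and TRAP1 at 122 ± 4.33. The libraries of HSPA9 and TRAP1 overlapped, as did those of AFG3L2 (50.2 ± 2.96) and DNAJA3 (49.9 ± 1.02), and the other neighbours in this order did not. LONP1 (95.8 ± 4.11) and YME1L1 (63.1 ± 2.24) lay between these pairs. CLPP and CLPX were lowest, at 22.2 ± 1.36 and 11.7 ± 1.00.

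On day 1 HSPE1 stood above HSPD1 per length, at 542 ± 45.6 against 474 ± 18.7, without overlap, and on day 2 their libraries overlapped. From day 4 on HSPD1 was again the higher. TRAP1 stood above HSPA9 from day 2 to day 10, at 149.9 ± 10.5 against 70.4 ± 2.64 on day 4. LONP1, which overlapped no other member on day 0, overlapped DNAJA3, AFG3L2 and YME1L1 on day 1 and DNAJA3 and YME1L1 on day 2. CLPP and CLPX overlapped from day 4 on, at 22.0 ± 1.93 and 20.8 ± 1.79 on day 6. Lengths came from a later annotation release than the one behind the counts. They were full lengths, without correction for fragment size, which weighs more on the short HSPE1 transcript (557 bases) than on that of HSPD1 (2245 bases). The order of these 2 genes, and the days on which it changed, may depend on the length used.

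The mitochondrial chaperones were set against their counterparts in the cytosol and the endoplasmic reticulum (ER) as ratios of counts within each library. HSPA8, the constitutive cytosolic Hsp70, rose on day 1 by 1.68 on the log2 scale and HSPA5, the ER Hsp70, fell by 0.93 (edgeR, adjusted p = 3.3e-24 and 4.39e-20). The libraries had 1.38, 1.24, 1.56, 1.20 and 1.28 HSPA9 counts per HSPA8 count on day 0, 0.434, 0.486, 0.479, 0.419 and 0.493 on day 1 and 0.962, 0.869, 0.875, 0.841 and 0.824 on day 10. All later libraries were below all of day 0, by 1.38 to 1.56 on the log2 scale on days 1 to 8 and by 0.60 on day 10 (exact permutation test, p = 0.00794, adjusted p = 0.0116).

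The ratio of HSPA9 to HSPA5 went up first, from 0.229, 0.228, 0.238, 0.228 and 0.224 on day 0 to 0.475, 0.502, 0.488, 0.488 and 0.481 on day 1 (1.09 ± 0.02 on the log2 scale, exact permutation test, adjusted p = 0.0116). It was still up by 0.49 on day 2, differed by -0.087 and -0.17 on days 4 and 6, and did not separate from day 0 on days 8 and 10 (0.012 and -0.019, exact permutation test, adjusted p = 0.714 and 0.718). The day 4 difference was lost without replicate 1, 3 or 4 of both days (-0.066 to -0.092). HSPA9 and HSPA5 were both below their day 0 levels on day 10. The ratio of the day 10 libraries was 0.246, 0.242, 0.216, 0.215 and 0.215, of which 2 lay above and 3 below the day 0 range, and the difference of their mean had a standard error of 0.047.

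TRAP1 per count of HSP90AB1, a cytosolic Hsp90, was 0.202, 0.194, 0.206, 0.199 and 0.181 on day 0 and 0.0719, 0.0756, 0.0650, 0.0700 and 0.0746 on day 1. On the log2 scale this fall of 1.46 (exact test by permutation, adjusted p = 0.0116) was followed by differences of -0.044 to 0.061 on days 2 to 8, none past the threshold, and by a rise of 0.26 on day 10 (adjusted p = 0.0116). Per count of HSP90B1, the ER Hsp90, TRAP1 was above day 0 in all libraries of all days, by 0.32 to 0.85. DNAJA3 per count of DNAJA1, a cytosolic J-domain protein, was lower on days 1 and 2 (-0.50 and -0.45) and higher on day 10 (0.40), each at an adjusted p of 0.0116 (exact permutation test). HSPD1 per count of TCP1, a subunit of the cytosolic chaperonin, was lower on days 1, 2, 4, 8 and 10 by 0.18 to 0.60 (adjusted p = 0.0116, exact permutation test) and overlapped day 0 on day 6 (-0.0026). In all, 46 of the 60 ratio tests passed. Ratios of other gene pairs were not tested, so no share over pairs in general can be set beside this count, and several of the pairs share a gene.

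**Figure D3:**
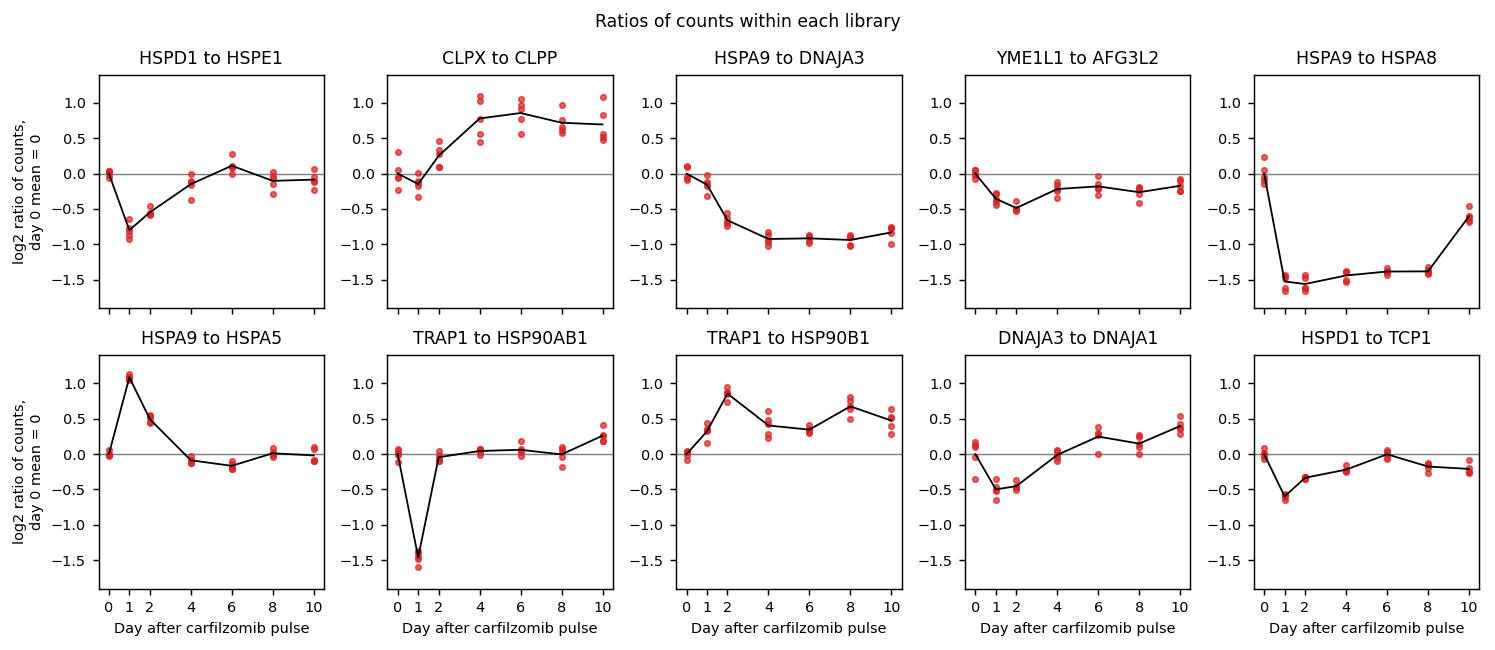
Log2 ratio of counts between 2 genes within each library (vertical axis, relative to the mean of day 0) by day (horizontal axis), with a dot per library and a line through the day means. HSPD1 to HSPE1 fell by 0.80 on day 1 and came back, CLPX to CLPP stayed up from day 4, and HSPA9 to HSPA8 was down by 1.38 to 1.56 until day 8.

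The counts of a symbol were also split by the biotype of its transcripts. Transcripts of the other biotypes, mostly retained introns and nonsense-mediated decay, are annotated as not giving the full protein. The share of a symbol's counts outside protein coding could be followed for 4694 symbols, 9 of them members, since YME1L1 had 8.49 such counts per library and the minimum was a mean of 20. This share fell in most members. HSPD1 had 7.03, 6.45, 8.71, 4.94 and 7.38% of its counts in other biotypes in the day 0 libraries and 3.66, 3.30, 2.33, 1.99 and 2.06% on day 1. HSPE1 had 9.27, 6.18, 8.81, 5.44 and 5.88% and 1.62, 1.52, 2.54, 1.47 and 1.35%. In both genes every day 1 library was below every day 0 library.

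Shares were called lower for 5 of 9 members on day 1 (DNAJA3, HSPD1, HSPE1, TRAP1 and AFG3L2), for 7 on day 2 and for 7 on day 4, on both latter days with HSPA9 and LONP1 added (exact permutation test, adjusted p = 0.0331, 0.0339 and 0.0471 over all symbols). Of all 4694 symbols, 21.0%, 21.3% and 15.2% were called lower on these days, and the median share over all symbols went from 21.5% on day 0 to 16.8%, 16.7% and 18.2%. LONP1 went from 13.9% ± 2.5 to 4.37% ± 1.33 on day 2 (SD, n = 5), HSPA9 from 5.77% ± 1.45 to 2.02% ± 0.538, and DNAJA3 from 13.8% ± 0.461 to 7.64% ± 1.49. The median difference of the 9 members was -4.23, -3.97 and -3.49 percentage points on days 1, 2 and 4, and that of all symbols was -2.98, -3.05 and -2.21.

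On days 6, 8 and 10 none of the 4694 symbols passed the exact permutation test after adjustment, while 1437, 1400 and 1268 had an unadjusted p under 0.05. On day 10 the shares of HSPD1, HSPE1, TRAP1 and AFG3L2 were below day 0 in all 5 libraries, at 3.75% ± 0.624, 3.05% ± 1.17, 3.31% ± 0.733 and 3.05% ± 0.638. Members below day 0 in all 5 libraries on these days were at the smallest p that the exact permutation test allows, with adjusted p of 0.0531, 0.0559 and 0.0629. With retained introns alone, which could be followed for 2739 symbols and 8 members, 5, 7 and 6 members were called lower on days 1, 2 and 4 (36.1%, 35.8% and 21.6% of all symbols), and the later days had calls too. HSPD1 and HSPE1 were then called lower on days 6, 8 and 10, AFG3L2 on days 6 and 10 and LONP1 on days 8 and 10 (exact permutation test, adjusted p = 0.0376, 0.0409 and 0.0433), where 16.7%, 17.8% and 15.7% of all symbols were called lower. The share of all counts of a library in retained introns moved as well, from a mean of 7.15% on day 0 to 5.05%, 5.18% and 6.43% on days 1, 2 and 10, and its part in the members' shares was not tested.

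CLPX had the highest share of the 9 members. Transcripts of other biotypes took 56.0, 51.1, 48.7, 50.5 and 56.6% of its counts on day 0, and 58.4, 52.4, 52.5, 57.8 and 56.4% on day 1. The 2 days overlapped. Its lowest day was day 6, at 46.9% ± 3.96, where 3 of 5 libraries were below all of day 0, and no day was called (exact permutation test, adjusted p = 0.156 to 0.903). Of CLPX counts over all libraries, 18923 were protein coding, 12614 were in retained introns and 7691 in transcripts annotated for nonsense-mediated decay. CLPP was at 7.36% ± 1.5 on day 0 and 3.68% ± 1.73 on day 2, which missed the threshold (exact permutation test, adjusted p = 0.0547).

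**Figure D4:**
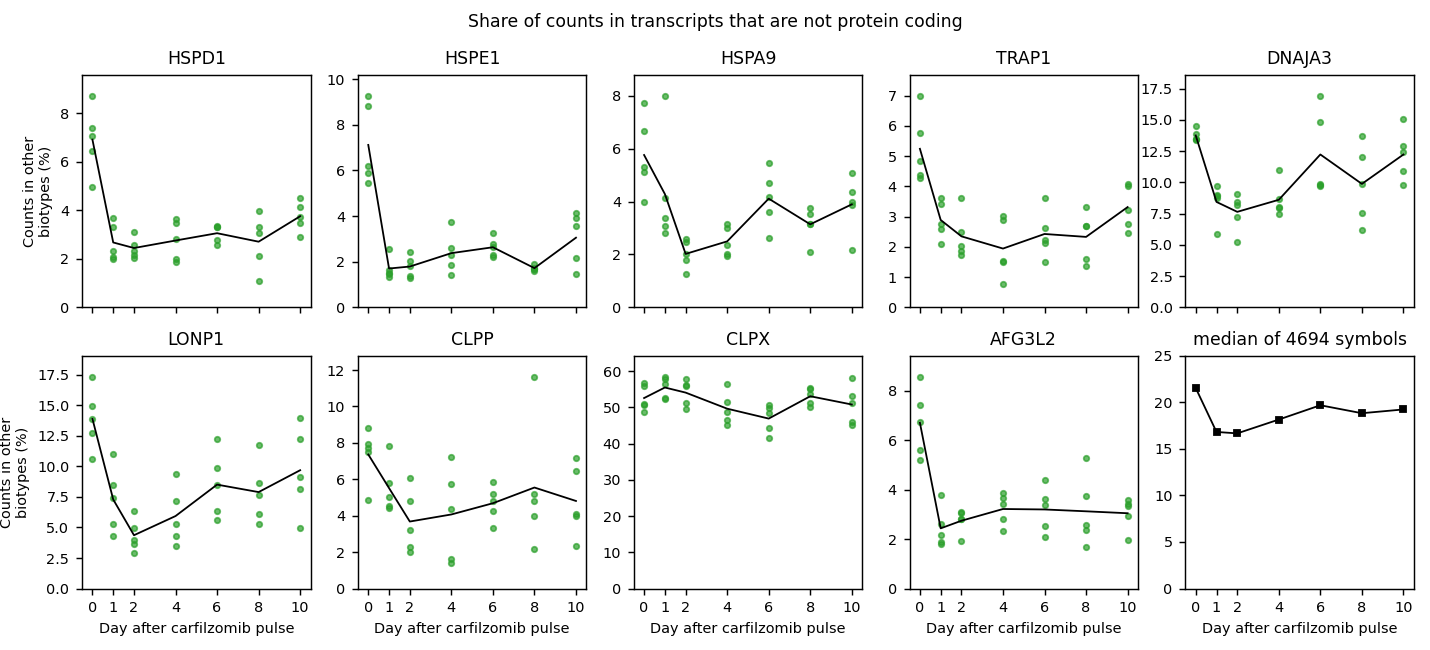
Percent of a gene's counts in transcripts that are not protein coding (vertical axes, starting at 0) by day (horizontal axis), with a dot per library and a line through the day means, and the median over 4694 symbols in the last panel. HSPD1 and HSPE1 dropped on day 1 to 2.67% and 1.70%, and the day means of CLPX lay between 46.9% and 55.5%, against 52.6% on day 0.

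The patterns of the members over the 7 day means were compared with all 12339 other entries that passed the filter on low counts, by Pearson's r as a description (the points are means of 5 libraries and share the day). The 2 entries most like HSPE1 were C14orf156 and PHB (r = 0.9997 and 0.999). C14orf156 is an older symbol of SLIRP, a mitochondrial RNA-binding protein, and PHB, prohibitin, is a scaffold of the inner membrane. Those most like HSPD1 were HIVEP3 and C4orf48, those most like HSPA9 were RING1 and RRS1, and those most like TRAP1 were AFAP1L2 and SPICE1. For DNAJA3 they were ADPGK and KPNB1. Among the proteases they were TSEN15 and PHACTR1 for LONP1, TMEM205 and GAK for CLPP, NUAK2 and TXNIP for CLPX, ZDHHC21 and GRPEL1 for YME1L1, and POLR3G and ISOC2 for AFG3L2, with r from 0.983 to 0.998. GRPEL1 is the nucleotide exchange factor of the matrix Hsp70. With 7 points and 12339 entries to choose from, every member had a close entry, and the lowest first r was 0.986, for DNAJA3. Nearness was not tested, and functions are given for some of these entries only.

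No member had another member among its 2 nearest entries. The closest was HSPA9 for YME1L1, in rank 137 (r = 0.91). AFG3L2 was nearest to HSPE1 (r = 0.95, in rank 331 from HSPE1 and 281 from AFG3L2), to DNAJA3 (r = 0.89, rank 289) and to CLPP (r = 0.93, rank 855). HSPE1 ranked 957 for its partner HSPD1 (r = 0.78). CLPX and CLPP, partners in 1 protease, had r = -0.29, and HSPA9 and CLPX had r = -0.85.

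Genes of the same system that are not members are given by 5 lists, with the largest called rise and fall of each list named. Of all entries, 25.4% were called higher and 27.3% lower on day 1, 23.2% and 24.4% on day 2, and 16.1% and 15.8% on day 10, and the median log2 fold change on day 1 was -0.061. Over the entries that passed the filter on low counts, this median was 0.0067. Of 8 partners of the matrix Hsp70 and the import motor, day 1 had 2 rises and 1 fall, day 2 had 2 of each, and day 10 had 1 of each, which is near the shares of all entries, with a median of 0.079 on day 1. DNLZ, an escort of HSPA9, rose on day 1 (0.89 ± 0.11, adjusted p = 7.65e-09, edgeR) and was below baseline on day 10 (-0.80 ± 0.13, adjusted p = 1.59e-06). GRPEL2, a second exchange factor, fell on day 1 (-0.70 ± 0.15, adjusted p = 0.000173) and on day 2 (-0.50) and was higher on day 10 (0.53 ± 0.14, adjusted p = 0.00309). DNAJC15, a J-domain protein of the import motor, was higher on day 2 (0.58 ± 0.082, adjusted p = 8.33e-08), and on day 1 it was not called (0.066).

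Of 7 processing peptidases, which cut targeting sequences from imported proteins or degrade them, day 1 had 3 rises and 2 falls (25.4% and 27.3% of all entries), day 2 had 4 rises and no fall (23.2% and 24.4%), and day 10 had 2 rises and 1 fall (16.1% and 15.8%). Their median on day 1 was 0.19. PITRM1, which degrades presequences, rose on day 1 (1.14 ± 0.053, adjusted p = 6.35e-22, edgeR). MIPEP, an intermediate peptidase with 47 to 69 counts per day 0 library, was higher on day 1 (0.39) and on day 2 (0.84 ± 0.13, adjusted p = 5.43e-07). PMPCB, a subunit of the main processing peptidase, was higher on days 1 and 2 (0.37 and 0.46) and on day 10 (0.61 ± 0.09, adjusted p = 7.1e-07). IMMP2L, an inner membrane peptidase, was lower on day 1 (-1.55 ± 0.17, adjusted p = 1.67e-10), at 19 to 29 counts per library, and on day 10 (-0.46).

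Of 8 membrane and intermembrane space proteases and scaffolds, 3 rose and 3 fell on day 1 (25.4% and 27.3% of all entries), 5 and 2 on day 2 (23.2% and 24.4%), and 3 and 1 on day 10 (16.1% and 15.8%). Their median on day 1 was 0.22. SPG7, the partner of AFG3L2 in the matrix-facing protease, rose on day 1 (1.55 ± 0.18, adjusted p = 1.32e-09, edgeR) and was higher on days 2 and 10 (0.76 and 0.52). It had only 38 to 59 counts in the day 0 libraries, and its day 10 libraries overlapped day 0 (adjusted p = 0.0359, edgeR). PHB rose on day 1 (1.22) and stood at a like height on day 2 (1.11 ± 0.069, adjusted p = 1.69e-17). OMA1, a stress-activated protease, was lower on day 1 (-0.64 ± 0.081, adjusted p = 7.11e-09) and day 10 (-0.25), and LACTB, a filament-forming serine protease, on days 1 and 2 (-0.27 and -0.36).

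Of 6 other folding and assembly factors, 4 rose and 2 fell on day 1 (25.4% and 27.3% of all entries), whereas 2 and 1 on day 2 and 1 and 2 on day 10 were nearer to the shares of all entries (23.2% and 24.4%, and 16.1% and 15.8%). Their median on day 1 was 0.41. CLPB, a disaggregase of the intermembrane space, rose on day 1 (1.15 ± 0.14, adjusted p = 1.23e-09, edgeR). BCS1L, which inserts a subunit of complex III, was higher on day 1 (0.62), day 2 (0.73 ± 0.095, adjusted p = 1.56e-08) and day 10 (0.48). LETMD1 was lower on days 1 and 2 (-0.95 and -0.42), and PPIF, the matrix cyclophilin, was higher on day 1 (0.19) and lower on day 10 (-0.59 ± 0.066, adjusted p = 1.72e-09).

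Among 8 transcriptional regulators linked to these genes, 1 rose and 4 fell on day 1 (25.4% and 27.3% of all entries), 2 and 4 on day 2 (23.2% and 24.4%), and 1 and 4 on day 10 (16.1% and 15.8%). Their median on day 1 was -0.84. HSF1, the heat shock factor, was higher on day 1 (0.16 ± 0.055, adjusted p = 0.0134, edgeR) and on day 2 (0.32), and NRF1, a regulator of mitochondrial genes, on day 2 (0.62 ± 0.099, adjusted p = 1.06e-06) and day 10 (0.38). DDIT3, the stress factor CHOP, stood at 60.8 CPM at baseline and was lower on day 1, at 9.94 CPM (-2.61 on the log2 scale) and on day 2, at 5.02 CPM (-3.58 ± 0.15, adjusted p = 5.53e-23). ATF5, a factor tied to the mitochondrial unfolded protein response, was lower on day 2 (-1.47) and on day 10 (-2.02 ± 0.073, adjusted p = 1.99e-24), at 20.7 against 84.0 CPM. One of the falls called on day 1 was that of PPARGC1A, which rests on 9 counts in the 5 day 0 libraries and 1 in those of day 1, with a 95% interval of -5.06 to -0.37, and cannot be ranked among the others.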

How the data were processed

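RNA-seq of 35 libraries was used. The authors deposited estimated counts, made with Kallisto 0.44.0 against GENCODE release 28 transcripts of GRCh38.p12, with GC adjustment, and summarized with tximport with adjustment for length. The submitters' processing notes also name R 3.5.0 and DESeq2 1.25.8. The deposited values are whole numbers per gene symbol and transcript biotype, without scaling for library size.

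The 10 members and all lists were chosen with earlier results of these data known. The 17999 protein-coding entries with a count were tested with edgeR 4.0.16 (quasi-likelihood, TMM factors 0.929 to 1.08, all libraries in 1 fit with day as the factor and without a block) in R 4.3.3, with Benjamini–Hochberg adjustment over all entries. Fold changes use the edgeR prior count of 0.125 and ratios of counts a prior of 0.5. Ratios and biotype shares were compared by exact two-sided permutation of 5 against 5 libraries (Python 3.11.15, numpy 2.4.6), with adjustment over the 60 ratio tests, or over 4694 symbols per day. The share test had been planned with adjustment over the members alone, which was not used. Both procedures were tested on simulated data with known answers. Outside the members, genes were named by rule, as the largest rise and fall past the threshold in each list on days 1, 2 and 10, the 2 entries nearest in pattern, and the counterparts in the ratios. Where a further value of such a gene is given, the gene came from this rule.

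Annotation was GENCODE release 44 of GRCh38, and promoter sequences were from RefSeq. The alternatives were RLE factors, no factors, filterByExpr, summed biotypes, 2 days alone, a replicate block, another prior count, retained introns alone, DESeq2 1.42.0 and each library left out. The methods name fewer subcultures than libraries, so some subcultures were sampled on several days. Which libraries came from the same subculture is not given in the sources used here, and matching replicate numbers may pair them. The edgeR fit and the permutation tests treated all libraries as independent. With the replicate number as a block in the edgeR fit, no call of a member changed, whereas the permutation tests were unpaired. Counting error and library spread together limit the smallest change seen, and no sequencing batch was given in the sources used here.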

Additional observations from a re-analysis of the deposited data

Results flagged for a closer look

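In 6 of 203 groups of 5 libraries, 1 library stood far from the other 4 (a gap above 0.710 of the group's range), where chance alone flags about 1 in 20. None of them was a level of a member in CPM. The ratio of HSPD1 to HSPE1 counts was 4.48 in replicate 3 of day 2, with the nearest other library at 4.18, and all 5 remained below day 0. The ratio of YME1L1 to AFG3L2 counts was 1.28 in replicate 5 of day 2, with the nearest other at 1.18. The other 4 were shares of counts in transcripts that are not protein coding. HSPE1 had 2.54% in replicate 3 of day 1 (nearest other 1.62%), HSPA9 had 8.01% in replicate 1 of day 1 (nearest other 4.16%), DNAJA3 had 5.90% in replicate 3 of day 1 (nearest other 8.73%), and AFG3L2 had 1.92% in replicate 2 of day 2 (nearest other 2.82%). The HSPA9 library was also above all day 0 libraries, and the HSPA9 share on day 1 did not pass the exact permutation test (adjusted p = 0.371).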

How the results depend on the processing

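Of 110 comparisons of a member between 2 days, 95 kept their side of the threshold under every alternative run, and none changed direction after being called. The 15 others are TRAP1 on day 1, YME1L1 on days 2, 4 and 10, HSPD1 and HSPE1 on day 10, DNAJA3 and AFG3L2 on day 4, and 7 between consecutive days. Library sizes without factors changed the side of 9 of them, leaving out 1 library changed 9, summed biotypes 4, the 2 days alone 3, DESeq2 1, filterByExpr 1 and RLE factors 0. Without factors the median of entries past the filter moved to 0.12, 0.13 and 0.10 (log2) on days 1, 2 and 4 against day 0. The number of members called between days 4 and 6 was 1 to 2 without single libraries (1 without replicate 3 of day 6). The 19 biotype shares past the threshold over 9 members and 6 days became 0 to 0 with 1 replicate number left out, because 4 against 4 libraries allow no p under 0.0286, and were 28 over 8 members with retained introns alone, 10 of them on days 6, 8 and 10. The 46 ratios past the threshold were 42 to 43 with 1 replicate number left out and 46 with summed biotypes. With the replicate number as a block, 9 members were called on day 1 and 10 on day 2, and the block changed no call of a member. Deviations of same-numbered libraries correlated at -0.11 to 0.10 over 55 pairs (median 0.0029), and 11 were closest to their own number. Behind the shares stood few counts in some members, with 20.0 for CLPP and 38.5 for AFG3L2 per library in other biotypes.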
